A study of Mus musculus with 14 samples.

Results

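Amylases cut the α-1,4 bonds of starch and glycogen. In the mouse 1 enzyme is secreted into saliva and a closely related one into pancreatic juice. Their genes lie side by side, and the salivary gene Amy1 is known as the product of the parotid gland that is also made at a low level in liver. The pancreatic enzyme comes from a group of near-identical Amy2 copies that are known for their very high output in the acinar cells of the pancreas.

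Transcript signatures of these genes were measured by massively parallel signature sequencing in pancreas, parotid gland, liver, stomach, spinal cord, hippocampus and bone marrow of C57BL6 mice, with 1 male and 1 female library for each of the 7 tissues and 14 libraries in all. No treatment or genotype beyond the strain is given. Per the labels, RNA was copied into cDNA, the cDNA was cut with DpnII at GATC, and the 20 bases at the last such site before the 3′ end were sequenced. The number of animals pooled in a library is not stated, so the p-values below measure the spread between libraries, which may be technical. The labels name the left lobe for the male liver and the right lobe for the female liver.

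A gene was taken as an amylase where the accession or title that the files attach to its tags names salivary or pancreatic amylase. This held for 3 of 22221 UniGene clusters and for 62 of 87285 tags on the sense strand. The cluster Mm.378882 was identified as Amy1 through a RefSeq accession attached to it, since its title is given as not available. Mm.331313 carries the title of pancreatic amylase 2 and is called Amy2a here. Mm.218830 is titled as similar to the pancreatic amylase of the rat. It had 1 tag with 5 counts in the male and 30 in the female pancreas library and 0 counts in the other 12 libraries, and it did not pass the filter on low counts, while Amy1 and Amy2a did. The files carry no cluster for the single Amy2 copies, so Amy2a stands for whichever of them share its tags. RefSeq (GRCm38.p6) lists 8 amylase genes or pseudogenes on the minus strand of chromosome 3 within chr3:113147656-113577750, with Amy2b at chr3:113147656-113156727, Amy2a5 at chr3:113249178-113258699, Amy2a1 at chr3:113528095-113532428 and Amy1 at chr3:113555952-113577750.

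Over all libraries together, almost all counts of each amylase fell on 1 tag. These main tags are shown because they carried nearly all counts of each gene in its own gland, with the DpnII site in capitals.
Amy1 main tag: GATCtgtgaacatcgatggc
Amy2a main tag: GATCagaatgactggattgg
The main Amy1 tag held 96.5% of the sense counts of Amy1 over all libraries, and the main Amy2a tag held 98.5% of those of Amy2a. The Amy1 tag and a tag read from the same site on the opposite strand, GATCcagtcattgccacaag, join into a stretch of 36 bases. The 20 bases of this stretch that match the main Amy2a tag best, without gaps, differ from that tag at 7 places.
Amy1 stretch: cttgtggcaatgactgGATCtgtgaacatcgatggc
Counted from the 5′ end of the Amy2a tag, with the Amy1 base first, the differences are T1G, G2A, G4C, G5A, C6G, C18T and T19G, with an identical run of 11 bases between them. Some of these differences fall in the GATC of the Amy2a tag. The match is only the best within this stretch, and the transcripts of the genes were not aligned. Whether it is the place in Amy1 that corresponds to the Amy2a tag was not tested. The main tags themselves differ at 10 of 20 bases.
A pair of rarer tags differs at 1 base, G19A counted from the 5′ end with the Amy1 base first, and is shown with that base in capitals.
Amy1 paired tag: gatctgggtggtgaggcaGt
Amy2a paired tag: gatctgggtggtgaggcaAt
Even this pair was largely separated by tissue. The Amy1 form had 17 counts in male and 12 in female pancreas, against 4661 in male and 4555 in female parotid. Relative to the main Amy1 tag it stood at 9.09% in pancreas and 1.57% in parotid. Whether its pancreas counts came from Amy1 was not tested. The Amy2a form had 3488 counts in male and 2850 in female pancreas, against 1 in male and 0 in female parotid.

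Amy1 was a parotid transcript and Amy2a a pancreas transcript, each among the most abundant of its gland. Levels are CPM, the counts of a gene scaled to 1e6 counts assigned to genes in the same library. Amy2a was at 246815 CPM in the male and 343489 CPM in the female pancreas library, where it was the most abundant gene and took 24.7% and 34.3% of all gene counts. Amy1 was at 86955 CPM in the male and 87616 CPM in the female parotid library and ranked 3 among the genes of each, with 8.70% and 8.76% of the gene counts. In both cases the lower of the gland's libraries stood above all 12 libraries of the other tissues. In bulk tissue, fewer cells of a type and less RNA per cell cannot be told apart.

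**Figure D1:**
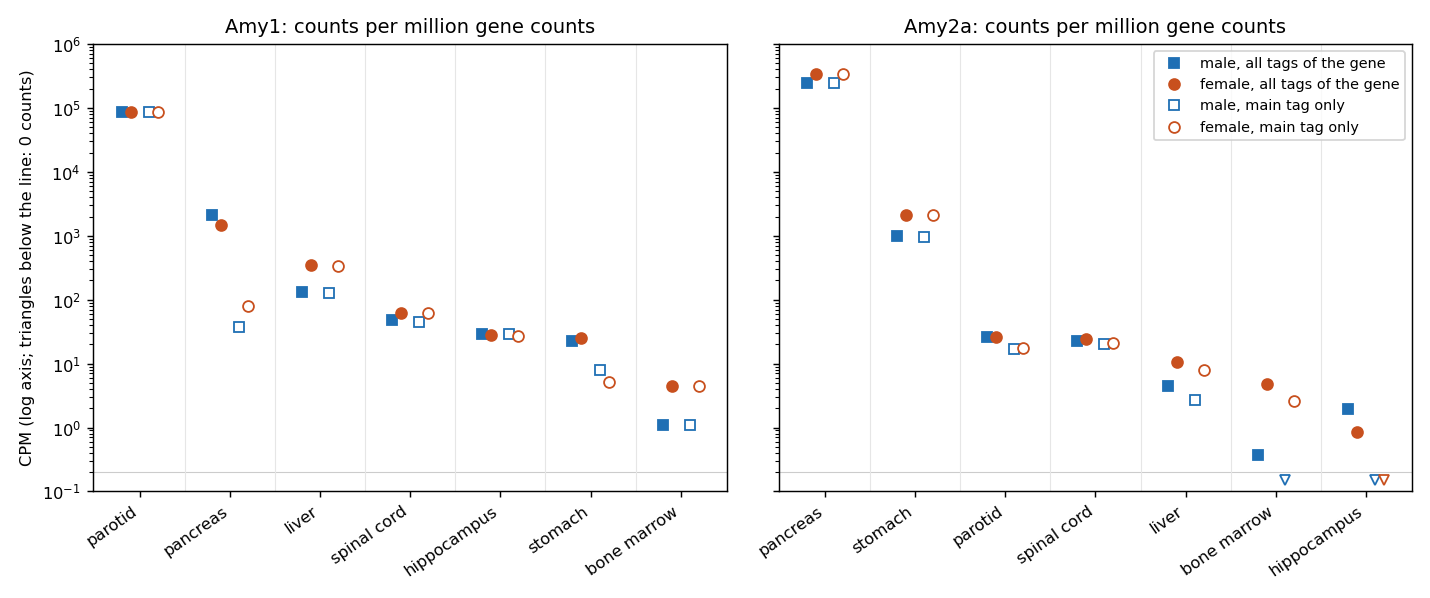
Levels of Amy1 (left) and Amy2a (right) in CPM on a log axis, with 1 point for each of the 14 libraries, squares for male and circles for female; filled points count all sense tags of the gene and open points the main tag only, and triangles mark 0 counts. Tissues run from the highest to the lowest mean of all tags. Amy1 in pancreas lies above 1000 CPM by all tags and below 100 CPM by its main tag.

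The fitted model scales each library by TMM, a factor that offsets the room taken by a few very abundant genes. The mean factor was 0.165 in pancreas, 0.559 in parotid and 2.46 in spinal cord, so fitted folds and ratios of CPM differ. A gene was called where the Benjamini-Hochberg adjusted p of the edgeR quasi-likelihood test was under 0.05 and the fold at least 2. The mean of several tissues in a contrast is the mean of their fitted log2 levels. A very high tissue weighs less in it than in a mean of CPM. Over all 14682 tested genes the median log2 fold was -0.59 for pancreas against the other 6 tissues, -0.24 for pancreas against parotid, -0.32 for liver and 0.00 for stomach against 4 other tissues, and -0.02 for parotid against the other 6.

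Amy1 was called higher in parotid than in the mean of the other 6 tissues, with a log2 fold of 11.51 ± 0.41 (SE) and an adjusted p of 9.25e-13, in a comparison that called 11.1% of all tested genes higher and 3.87% lower. Amy2a was not called there, with 26.0 CPM in each of the parotid libraries, a log2 fold of -0.63 ± 0.75 and an adjusted p of 0.730. The mean of the other 6 tissues is of log2 levels and includes pancreas, where Amy2a averaged 295152 CPM. Amy2a was called higher in pancreas than in the mean of the other 6 tissues, with a log2 fold of 17.11 ± 0.66 and an adjusted p of 3.84e-13, where 6.33% of genes were called higher and 3.24% lower. Between the glands, Amy2a was called higher in pancreas than in parotid by a log2 fold of 15.21 ± 1.45 (adjusted p = 7.83e-07), and Amy1 was called lower by -3.78 ± 0.67 (adjusted p = 0.00110), where 2.84% of genes were called higher in pancreas and 3.47% lower. With the main tag of each gene alone, the Amy1 difference between pancreas and parotid was -8.90 ± 0.83 (adjusted p = 5.78e-07). These contrasts share libraries and are not independent of each other.

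**Figure D2:**
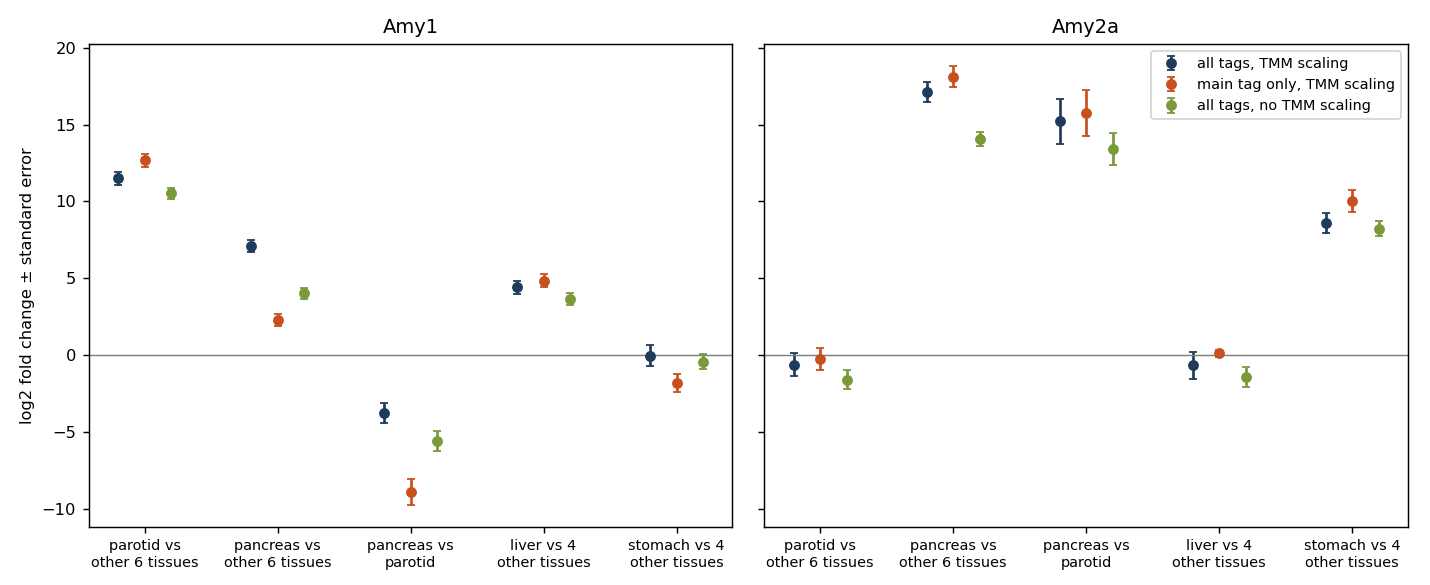
Log2 fold change with its standard error for Amy1 (left) and Amy2a (right) in 5 tissue contrasts, fitted on all sense tags with TMM scaling, on the main tag of each gene with TMM scaling, and on all sense tags scaled by library totals. The Amy1 contrasts that involve pancreas are the ones most moved by the choice of tags, and the Amy2a folds in pancreas stay above 13 in each of these fits.

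The pancreas value of Amy1 depended on which tags were counted. All sense tags of the gene gave 2086 CPM in male and 1490 CPM in female pancreas. The main tag had 98 counts in male and 221 in female pancreas, which is 37.0 and 79.9 CPM, so it made up 1.77% and 5.36% of the counts assigned to Amy1 there. In parotid it made up 98.0% in the male and 97.9% in the female library. Most of the other pancreas counts came from the tags shown next, where capitals mark the base that differs from the main Amy2a tag or, in the last line, the DpnII site.
Amy1 gene, G20T from the main Amy2a tag: gatcagaatgactggattgT
Amy1 gene, A5C from the main Amy2a tag: gatcCgaatgactggattgg
Amy1 gene, A8T from the main Amy2a tag: gatcagaTtgactggattgg
Amy1 gene, second internal tag: GATCttgcacttgagaaaga
The first 3 tags lie 1 substitution from the main Amy2a tag, with positions counted from its 5′ end, and 10 substitutions from the main Amy1 tag. Together they had 1639 counts in male and 1956 in female pancreas, 16 in male and 41 in female stomach, and 0 in the other 10 libraries, parotid included. The second internal tag, which differs from the main Amy1 tag at 11 bases and from the main Amy2a tag at 13, had 3718 counts in male and 1896 in female pancreas, against 806 in male and 889 in female parotid. Its ratio to the main Amy1 tag was 0.288% in parotid and 0.271% in liver, while in each pancreas library it outnumbered that tag. The files assign this tag to Amy1; whether the Amy2 copies also hold it could not be read from them.

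**Figure D3:**
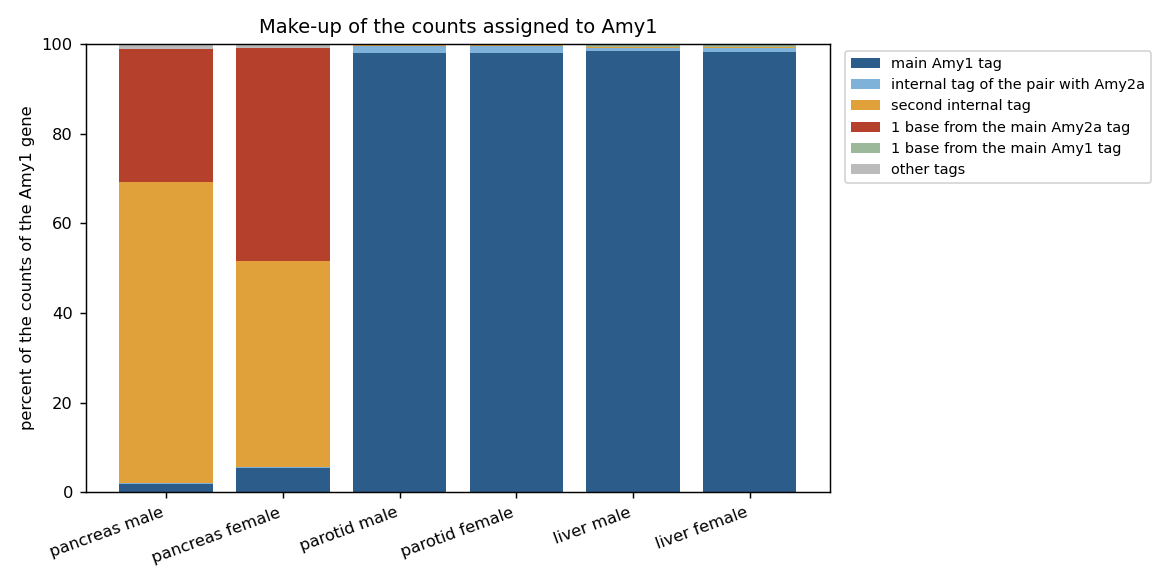
Make-up of the counts assigned to Amy1 in the pancreas, parotid and liver libraries, as percent of the gene's sense counts in each library. The main tag fills nearly the whole bar in parotid and liver, while in pancreas the second internal tag makes up 67.2% in the male and 46.0% in the female library, and tags 1 base from the main Amy2a tag 29.6% and 47.5%.

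Against the mean log2 level of the other 6 tissues, Amy1 in pancreas was called higher by 7.10 ± 0.38 on all its tags (adjusted p = 4.66e-11). On the main tag alone it was called higher by a log2 fold of 2.30 ± 0.41 (adjusted p = 0.000836). Parotid is among these 6 tissues and stood above pancreas in both fits. Without the TMM factor of 0.165 in pancreas, the main tag averaged 58.4 CPM there, 85513 CPM in parotid and 233 CPM in liver. The share of Amy1 in all amylase counts of pancreas was 0.838% in the male library (exact 95% interval 0.816 to 0.860) and 0.432% in the female (0.419 to 0.445). Between the main tags alone it was 0.0152% in the male (0.0124 to 0.0186) and 0.0235% in the female library (0.0205 to 0.0269). In parotid, Amy1 made up 99.97% of amylase counts in the male and in the female library. The intervals cover counting error only, since copies made by amplification are not independent molecules.

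Outside parotid, the main Amy1 tag had its highest CPM in liver. It had 424 counts in male and 681 in female liver, 128 and 338 CPM, and both libraries stood above both pancreas libraries. This order turns with TMM scaling, where the mean of the main tag was 215 in liver and 344 in pancreas. On all tags, liver was called higher than the mean of bone marrow, hippocampus, spinal cord and stomach, with a log2 fold of 4.42 ± 0.43 (adjusted p = 8.79e-08), where 19.4% of genes were called higher and 17.1% lower. Parotid and pancreas, both above liver on all tags, were left out of this mean. The female liver level of Amy1 was above the male one, and the lobes differ between them as well. Amy2a had 9 main tags in male and 16 in female liver, and its log2 fold there was -0.66 ± 0.88 (adjusted p = 0.649). Amy1 thus held 96.6% of amylase counts in male and 97.1% in female liver (exact 95% intervals 94.5 to 98.1 and 95.5 to 98.2). Parotid secretory genes had almost no counts in liver: 2 of 15 listed genes were detected in the male and 1 in the female library, with a summed level of 0.907 and 0.496 CPM, against 615729 CPM in male and 623094 CPM in female parotid. Bpifa2, the parotid secretory protein, had 2 counts in male and 0 in female liver. Of 12 such genes with over 100 CPM in parotid, the highest stood at 0.118% of its parotid level in liver, and Amy1 at 0.272%. The value of 0.118% rests on 1 count in female and 0 in male liver, and that of Amy1 on 1125 counts. The 8 hepatocyte markers were all present in liver and were led by albumin (Alb), with 30611 CPM in the male and 46078 CPM in the female library.

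By CPM the remaining order of Amy1 was spinal cord, hippocampus, stomach and bone marrow. On all tags, TMM scaling placed stomach (18.2) above hippocampus (12.8). On the main tag it kept hippocampus (12.5) above stomach (4.96). Tags 1 base from the main Amy2a tag gave 16 of the Amy1 counts in male and 41 in female stomach. All sense tags gave 48.8 and 61.5 CPM in male and female spinal cord, 29.3 and 28.2 CPM in hippocampus, 22.4 and 24.7 CPM in stomach, and in bone marrow the gene had 3 counts in male and 12 in female. The fit did not call hippocampus against spinal cord (log2 -0.80 ± 0.63, adjusted p = 0.590, with 6.39% of all genes called) or hippocampus against stomach (-0.49 ± 0.64, adjusted p = 0.557, 46.1% called). It called pancreas above liver on all tags (liver minus pancreas -5.75 ± 0.74, adjusted p = 1.11e-05, 18.5% called) but not on the main tag (-0.67 ± 0.60, adjusted p = 0.557). Liver was called above spinal cord by 3.25 ± 0.66 (adjusted p = 0.000484, 48.7% called), and bone marrow below stomach by -3.26 ± 0.77 (adjusted p = 0.00242, 39.3% called); on the main tag the last was -1.48 ± 0.80 (adjusted p = 0.159). In stomach the main Amy1 tag had 15 counts in male and 12 in female, of 43 and 57 counts of the gene. On all tags, stomach differed from the mean of 4 other tissues by -0.03 ± 0.67 (adjusted p = 1), and on the main tag alone by -1.81 ± 0.61 (adjusted p = 0.0356), where 19.0% of genes were called higher and 7.79% lower in the fit on all tags.

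Stomach came after pancreas in the order of Amy2a. The main tag had 1837 counts in male and 4818 in female stomach, and all sense tags gave 998 and 2136 CPM, 0.338% and 0.724% of the mean pancreas level. Both libraries stood above every library of parotid, liver, spinal cord, hippocampus and bone marrow. Stomach was called higher than the mean of bone marrow, hippocampus, spinal cord and liver by a log2 fold of 8.61 ± 0.65 (adjusted p = 5.76e-09), below pancreas by 10.60 ± 1.25 for pancreas minus stomach (adjusted p = 1.11e-05, 11.7% of genes called) and above parotid by -4.61 ± 0.98 for parotid minus stomach (adjusted p = 0.00269, 16.7% called).

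Other pancreatic digestive genes were present in the same stomach libraries. Of 21 listed genes with a cluster, 20 had counts in male and 21 in female stomach, with a summed level of 108253 and 107758 CPM, most of it from colipase (Clps) and the phospholipase Pla2g1b. In stomach against the 4 other tissues, 19 of 21 were called higher and 0 lower, where 19.0% of all genes were called higher and 7.79% lower. Of these, 20 had over 100 CPM in pancreas, and their stomach level as a share of the pancreas level had a median of 1.17%, against 0.531% for Amy2a, with 16 of the 20 above Amy2a and 4 below. Of the listed genes most abundant in pancreas, the chymotrypsinogen gene Ctrb1 stood at 0.485% in male and 0.414% in female stomach, the trypsinogens Prss2 at 0.485% and 0.755% and Try5 at 0.607% and 0.798%, and Cela2a at 1.58% and 0.879%. The cluster called Cela2a here, for a pancreatic elastase, holds a RefSeq accession of that gene but is titled chymotrypsin C in the files. By CPM, Pla2g1b and Clps, picked here for their values, were higher in stomach than in pancreas. Pla2g1b had 29438 CPM in male and 10214 CPM in female stomach, against a pancreas mean of 594 CPM. Clps had 74396 and 93379 CPM, against 33606 CPM. These values carry no TMM scaling, whose mean factor was 0.165 in pancreas and 1.30 in stomach. Divided by these factors, Clps would stand higher in pancreas, and Pla2g1b still in stomach. Rbpjl, a subunit of the pancreatic acinar transcription complex, had 4.16 CPM in male and 3.47 CPM in female stomach, against 37.7 and 54.6 CPM in pancreas. The 10 gastric gland markers, led by the pepsinogen gene Pgc, all had counts in stomach and summed to 278471 CPM in the male and 115819 CPM in the female library, while in pancreas 2 of 10 had counts in each library and the sums were 1964 CPM in the male and 1774 CPM in the female. The part of pancreatic tissue in the Amy2a level of stomach was not tested.

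**Figure D4:**
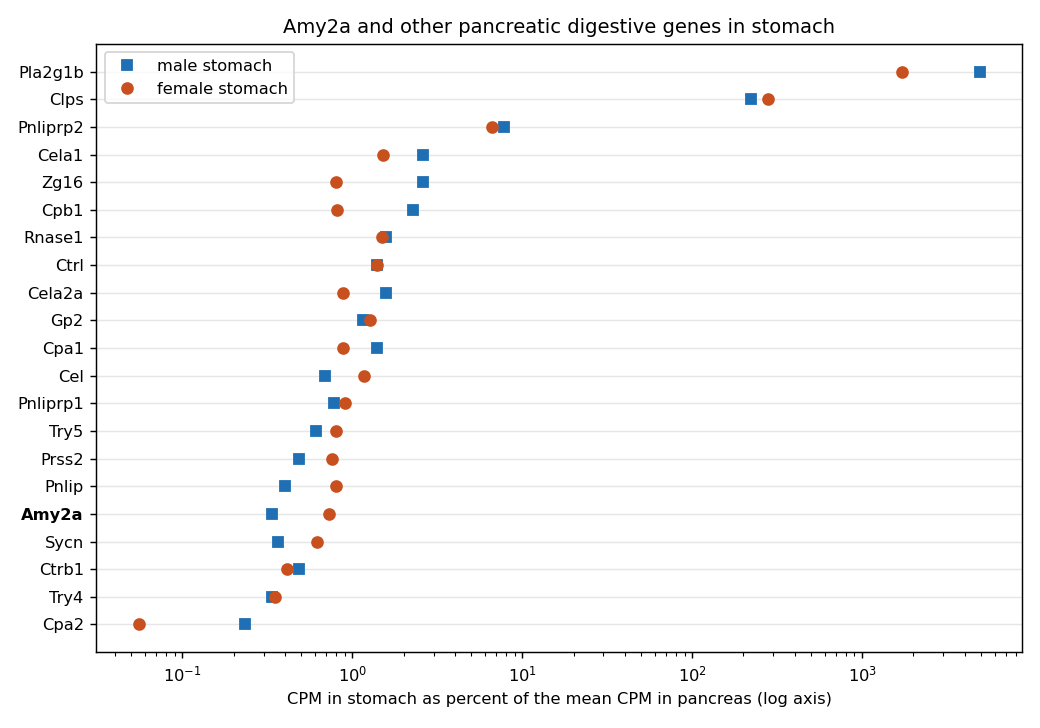
Level in male (squares) and female (circles) stomach as percent of the mean level in pancreas, on a log axis, for Amy2a and 20 listed pancreatic digestive genes with over 100 CPM in pancreas. Levels are CPM without TMM scaling. Amy2a lies among the lower genes, at 0.338% in male and 0.724% in female stomach, and Clps and Pla2g1b lie above 100%.

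Amy2a was low in the other 5 tissues, and which tissue came next depended on the tags. All sense tags gave 26.0 CPM in each parotid library, 22.5 CPM in male and 24.4 CPM in female spinal cord, 4.54 and 10.4 CPM in liver, 0.367 and 4.76 CPM in bone marrow and 1.98 and 0.843 CPM in hippocampus. By CPM the main tag averaged 20.8 in spinal cord and 17.3 in parotid, while TMM scaling gave 8.51 in spinal cord and 31.0 in parotid. It had 0 counts in both hippocampus libraries and in male bone marrow, and 7 in female bone marrow. The 1 count of the gene in male bone marrow was of a rarer tag with 0 counts in both pancreas libraries. The hippocampus counts of the gene were all of a tag of GATC followed by a run of A, GATCaaaaaaaaaaaaaaag, which occurred in 12 libraries. By CPM of the main tag, pancreas exceeded stomach by 191-fold, spinal cord by 13997-fold, parotid by 16818-fold and hippocampus by at least 237409-fold, with 3 counts in each hippocampus library as the floor. No neighbouring pair below stomach was called by the edgeR fit. Parotid against spinal cord gave 2.29 ± 0.92 on all tags (adjusted p = 0.0572, 37.5% of genes called). This pair was called on all tags by DESeq2 (adjusted p = 0.000115) and by limma voom (0.00838). On the main tag the edgeR fit gave 1.84 ± 0.92 (adjusted p = 0.133), not called. With library totals the fold was 0.16 ± 0.68, and with a library left out 1.91 to 2.65. A rarer Amy2a tag had 21 counts in male and 26 in female parotid and 0 in both spinal cord libraries. The other pairs gave -0.52 ± 0.96 for liver against spinal cord (adjusted p = 0.687, or -1.75 with an adjusted p of 0.0452 by library totals), -1.9997 ± 1.12 for bone marrow against liver (adjusted p = 0.174, 40.3% called, with an adjusted p of 0.0110 by DESeq2 and 0.0323 by limma voom) and 1.31 ± 1.35 for bone marrow against hippocampus (adjusted p = 0.446, 51.3% called). Parotid had counts for 17 of 21 pancreatic digestive genes in the male and 18 in the female library, with sums of 93.0 and 102 CPM, and spinal cord for 18 and 15, with sums of 69.8 and 32.7 CPM. Most of the parotid sums came from Rnase1, picked here for its values, with 74.5 CPM in male and 71.9 CPM in female. In spinal cord Rnase1 had 4.78 and 1.95 CPM. The part of pancreatic digestive genes in the low Amy2a levels was not tested.

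The low Amy1 levels lay beside low counts of parotid genes in some tissues. Parotid secretory genes summed to 4.53 CPM in male and 132 CPM in female pancreas, of which Bpifa2 gave 3.39 and 79.2 CPM, and the main Amy1 tag stood at 37.0 and 79.9 CPM in the same libraries. As a share of the mean parotid level, this is 0.0432% for the Amy1 tag and 0.00114% for Bpifa2 in male pancreas, and 0.0934% and 0.0266% in female pancreas. In hippocampus 5 of 15 parotid genes had counts in the male and 6 in the female library, with sums of 17.4 and 15.2 CPM. In spinal cord 6 and 5 had counts, with sums of 46.9 and 48.3 CPM. Among them, Fxyd2, a regulator of the sodium pump picked here for its values, had 12.3 and 7.16 CPM in male and female hippocampus and 41.6 and 37.1 CPM in spinal cord, while Bpifa2 had 0 counts in both spinal cord libraries and in male hippocampus and 1 in female hippocampus. Their part in the Amy1 levels of pancreas, hippocampus and spinal cord was not tested.

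Male and female libraries did not differ by a called amount for either amylase. In parotid the Amy1 levels of 86955 CPM in male and 87616 CPM in female gave a log2 fold of -0.02 ± 0.85 for male minus female (adjusted p = 1, with 0.00681% of genes called). In pancreas the Amy2a levels of 246815 and 343489 CPM gave -0.16 ± 1.10 (adjusted p = 1, 0% called). In liver the Amy1 levels of 130 and 344 CPM gave -1.02 ± 0.87 (adjusted p = 1, 0.0204% called). In stomach the Amy2a levels of 998 and 2136 CPM gave -1.23 ± 0.77 (adjusted p = 0.250, 25.8% called); limma voom gave the same fold with an adjusted p of 0.00337, and without the male or the female pancreas library the adjusted p was 0.0329 or 0.0269. For Amy1 in pancreas the direction depended on the tags, with 0.80 ± 0.77 for male minus female on all tags and -0.81 ± 0.83 on the main tag (adjusted p = 1 in each). Over the 7 tissues the log2 fold was -0.24 ± 0.35 for Amy1 and -0.55 ± 0.52 for Amy2a (adjusted p = 1 for each), where 0.0613% of genes were called. The difference between the sex fold of a tissue and that of the other 6 was called for neither amylase in pancreas, parotid, liver or stomach; those tests called 0.00681%, 0.00681%, 0.00681% and 22.3% of genes. Each of these tests takes the spread of a single pair from the other pairs.

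Amy1 has 2 transcript starts in RefSeq, 2988 bases apart. In the mouse the upstream start is known as the strong parotid one and the downstream start as a weaker one that is used in liver and parotid. The windows from 250 bases before to 50 bases after each start are shown because tags of the data fall in both, with GATC and TATAAA in capitals.
Amy1 upstream start, chr3:113577701-113578000, minus strand: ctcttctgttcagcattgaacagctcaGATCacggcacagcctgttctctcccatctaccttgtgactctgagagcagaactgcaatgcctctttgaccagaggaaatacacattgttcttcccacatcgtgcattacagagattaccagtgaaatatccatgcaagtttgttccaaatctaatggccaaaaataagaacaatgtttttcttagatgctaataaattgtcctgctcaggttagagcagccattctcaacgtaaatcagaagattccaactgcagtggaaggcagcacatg
Amy1 downstream start, chr3:113574713-113575012, minus strand: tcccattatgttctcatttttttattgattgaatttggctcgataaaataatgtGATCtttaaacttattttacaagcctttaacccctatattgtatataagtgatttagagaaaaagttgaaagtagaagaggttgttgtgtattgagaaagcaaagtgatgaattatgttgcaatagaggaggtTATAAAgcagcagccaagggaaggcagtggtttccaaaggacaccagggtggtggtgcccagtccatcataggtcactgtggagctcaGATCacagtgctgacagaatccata
GATC reads the same on both strands and occurs in 48.0% of 32851 RefSeq windows of this length. TATAAA, searched on the strand of the gene, occurs in 8.32% of them, in the downstream Amy1 window and not in the upstream one. The GATC of the upstream window starts the tag GATCacggcacagcctgttc, which had 2 counts in male parotid and 0 in the other 13 libraries and is assigned to chromosome 3 but to no gene. The last GATC of the downstream window starts the tag GATCacagtgctgacagaat, which the files assign to Amy1. It had 3 counts in male and 8 in female parotid, 1 in each liver library, 2 in male and 0 in female pancreas and 0 in the other 8 libraries. Relative to the main Amy1 tag this is 0.00187% in parotid (exact 95% interval of its share of both tags 0.000933 to 0.00334) and 0.181% in liver (0.0219 to 0.651). In pancreas it is 0.627% (0.0755 to 2.23). The liver and pancreas values rest on 2 counts each and their intervals overlap. The protocol reads the last GATC of a transcript, and this site lies far upstream of it, so the count is not a measure of how often the start was used. The windows of Amy2a2, Amy2a3 and Amy2a4 are identical to each other and 94.0% identical to that of Amy2a1, and these 4 windows hold 0 GATC sites.

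Tags that differ from a main tag at 1 position were counted over all tags of the files. At some positions near the 3′ end 4 such tags occurred, while only 3 other bases exist. The sets thus hold a few tags that are not base substitutions, and these were not separated in the values below. They came to 2.57% of the main Amy1 tag in male and 2.33% in female parotid, with 51 and 50 different tags. For Amy2a they came to 2.41% of the main tag in male and 2.01% in female pancreas, with 52 and 51 tags, and to 5.33% in male and 8.18% in female stomach, with 19 and 42 tags. Of the 52 tags around the Amy2a main tag, 11 are assigned to Amy2a with 4069 counts, 3 to Amy1 with 3652, 3 to other clusters with 1063 and 35 to no cluster with 26132 counts. So 74.8% of these counts are in no gene, and 10.5% are in Amy1.

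The genes whose levels followed each amylase most closely had their highest level in the same gland. The measure was the Pearson correlation of log2(CPM + 1) over the 14 libraries, a description with no test, since the points share the contrast between the gland and the rest. For Amy1 the 5 highest named genes were Ggh (0.87), a γ-glutamyl hydrolase, Bpifa2 (0.87), Cst10 (0.85), a cystatin, BC037156 (0.85) and Dnase1 (0.84), an endonuclease. Bpifa2 had 284888 CPM in male and 310299 CPM in female parotid and at most 79.2 CPM elsewhere. For Amy2a they were Ctrb1 (0.99), the lipase-related gene Pnliprp1 (0.99), Cela2a (0.99), Prss2 (0.99) and 2210010C04Rik (0.99). Ctrb1 had 172190 CPM in male and 120205 CPM in female pancreas and at most 709 CPM elsewhere, in male stomach. The Amy1 values use all tags, so its pancreas counts of other tags enter them.

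Of 12 listed transcription factors linked to acinar cells, 10 were tested. Against the other 6 tissues, 8 were called higher and 0 lower in pancreas (median log2 5.17, against -0.59 over all genes, of which 6.33% were called higher and 3.24% lower). In parotid 3 were called higher and 1 lower (median -1.24, against -0.02 over all genes, with 11.1% and 3.87% called). Pancreas against parotid called 6 higher and 0 lower, where 2.84% and 3.47% of all genes were called. Rbpjl had 37.7 CPM in male and 54.6 CPM in female pancreas and 0 in both parotid libraries, with a log2 fold of 11.19 ± 0.36 for pancreas against the other tissues (adjusted p = 6.08e-12). Bhlha15 (Mist1), which drives the secretory form of acinar cells, was called higher in both glands: it had 37.3 and 56.8 CPM in male and female pancreas and 116 and 103 CPM in parotid, with log2 folds of 9.21 ± 0.37 for pancreas and 8.58 ± 0.36 for parotid (adjusted p = 2.53e-11 and 7.40e-11). Spdef was called higher in both as well, by 5.05 ± 0.56 in pancreas and 5.72 ± 0.39 in parotid (adjusted p = 7.69e-06 and 1.27e-08). Xbp1, a factor of the secretory stress response, was called higher by 3.38 ± 0.27 in pancreas and 1.21 ± 0.30 in parotid (adjusted p = 3.67e-08 and 0.00915). In stomach 9 of the 10 were called higher than in the 4 other tissues and 0 lower, beside 19.0% and 7.79% of all genes.

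Of 18 tested genes for the later steps of starch and sugar digestion and for glycogen, 0 were called higher and 2 lower in pancreas (median log2 -1.11, beside 6.33% and 3.24% of all genes called), and 5 were called higher and 0 lower in parotid (median 0.15, beside 11.1% and 3.87%). Pygm, the glycogen phosphorylase of muscle, had 15.3 CPM in male and 9.65 CPM in female parotid and was called higher by 2.66 ± 0.37 (adjusted p = 3.41e-05). The fructose transporter gene Slc2a5 had 8.96 and 6.72 CPM and was called higher by 3.61 ± 0.56 (adjusted p = 0.000144). Gys2, the glycogen synthase of liver, had 1.16 and 1.46 CPM in parotid, near the level of 3 counts, and was called higher by 2.78 ± 0.78 (adjusted p = 0.0206). Pgm1, a phosphoglucomutase, had 0 and 0.723 CPM in male and female pancreas and was called lower there by -2.92 ± 0.72 (adjusted p = 0.0119). Both values lie below the level of 3 counts, 1.13 and 1.08 CPM in these libraries. In liver 9 of the 18 were called higher and 3 lower than in 4 other tissues, beside 19.4% and 17.1% of all genes. 

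Library totals ran from 2194028 to 3834568 counts, of which 60.8% to 92.1% were assigned to genes, and 3 counts, the limit that a count of 0 allows, correspond to 0.867 to 1.56 CPM. The stomach comparison sets 1 male against 1 female library, with the spread taken from the other tissues, and its 3794 calls describe these libraries only. The 6 islet markers with a cluster summed to 146 CPM in male and 224 CPM in female pancreas.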

How the data were processed

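Total RNA of 14 mouse libraries was profiled by signature sequencing, per the labels' protocols. The deposited values are raw counts per distinct 20-base tag, with a cluster, a class code and a title that the authors attached. Aligner and builds: not given in the sources used here. Codes 1 to 4 were read as the sense strand and 11 to 16 as the reverse strand, an assumption, since the legend is not given. Sense counts were summed per cluster, and CPM scales these counts to 1e6 per library.

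Tests used edgeR 4.0.16 in R 4.3.3: filterByExpr by tissue, TMM, terms for tissue and sex, quasi-likelihood F tests with 6 residual degrees of freedom, or 5 where a tissue had its own sex term, and Benjamini-Hochberg adjustment over 14682 genes. The sex contrast over 7 tissues had no minimum fold. Standard errors are the fold divided by the root of F. With 1 library per tissue and sex, p-values measure the spread between these libraries, which may be technical. DESeq2 1.42.0, limma 3.58.1 and Python 3.11.15 served the alternatives and tables.

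Symbols come from accessions or titles. The members, lists and markers were chosen with earlier results of these data known. Named genes are the members, the 5 named genes closest in pattern to each, up to 4 members per list by adjusted p or by level in its own tissue, and the most abundant tags; others are said to be picked for their values.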

Additional observations from a re-analysis of the deposited data

Results flagged for a closer look

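The comparisons left out the tags read on the reverse strand, and these held counts well above the 3 counts that a count of 0 allows. Reverse-strand tags of Amy1 had 15886 counts in male and 15251 in female parotid, 5.01% and 4.84% of the sense and reverse counts of the gene. Most were the tag GATCcagtcattgccacaag, which starts at the same DpnII site as the main Amy1 tag and had 14532 and 14013 counts. Reverse-strand tags of Amy2a had 8165 counts in male and 12498 in female pancreas, 1.23% and 1.30% of the sense and reverse counts, led by GATCctccagcaccatgtcc with 3900 and 6268 counts. In liver the reverse tags of Amy1 had 18 counts in male and 22 in female, 4.01% and 3.07%. Which strand these tags were copied from was not tested.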

How the results depend on the processing

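The parotid rise of Amy1, the pancreas rise of Amy2a, both differences between the glands, the liver rise of Amy1 and the stomach rise of Amy2a kept direction and call under each alternative run: DESeq2 size factors, library totals in place of TMM, DESeq2, limma voom, no filter on low counts, the most abundant tag per gene, tags of code 1, no sex term, the tags near the main Amy2a tag moved to Amy2a with the A-run tag left out (chosen after seeing the data), and each library left out. With library totals Amy2a in parotid against the other 6 tissues was -1.59 and called; with the moved tags it was 0.22. Amy1 in hippocampus against stomach was 0.30 with library totals, 1.31 by the most abundant tag, 1.32 by code 1 and 0.68 with moved tags. Amy1 in stomach against 4 tissues was 0.040 by limma voom, -1.81 by the most abundant tag and -1.82 by code 1, both called, and -0.21 to 0.33 with a library left out. Amy2a in liver was 0.12 by the most abundant tag and 0.019 with moved tags. Amy1 in male against female pancreas was -0.81 by the most abundant tag and -0.79 by code 1, and in stomach 0.48, 0.47 and, with moved tags, 0.88. Amy2a in male against female stomach was -1.23 by limma voom, called, and -1.29 to -1.24 with a library left out. Amy2a in bone marrow against hippocampus was -1.06 to 2.36 with a library left out, reversed without female bone marrow. The Amy1 share of amylase counts, between main tags, was 100% in male bone marrow, on 3 counts, and 75.0% there with moved tags. In both hippocampus libraries it was 100%, also with moved tags. In pancreas the share was 0.0152% in male and 0.0235% in female (0.590% and 0.227% with moved tags). In parotid it was 99.98% in male and 99.98% in female (99.96% in male with every code). In stomach it was 0.810% in male and 0.248% in female (1.39% and 0.322% with moved tags). Over all counts of a library, the main Amy1 tag had 77156 CPM in parotid, 34.1 in spinal cord and 19.7 in hippocampus, and the main Amy2a tag 13.5 in spinal cord and 15.6 in parotid. Genes called numbered 1406 for pancreas against the other 6, with 10626 by library totals, 3513 by limma voom and 572 to 2208 with a library left out. For pancreas against parotid they numbered 926, with 7035, 3421 and 435 to 1870, and for parotid against the other 6 they numbered 2196, with 4228, 3853 and 1005 to 3089. For sex over 7 tissues they numbered 9, with 5 by DESeq2, 3 by limma voom, 63 without the filter, 5 by code 1 and 9 to 121 with a library left out. The median fold of all genes in pancreas against the other 6 was -3.26 with library totals and -0.59 with TMM. The other causes were not tested. Low counts limit Amy1 and Amy2a in bone marrow and Amy2a in hippocampus. No paired analysis was possible because replicate numbers stand only for sex, which the model already holds as a term.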
